A study of Mus musculus with 12 samples.

Results

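The genes described here are 10 immediate early genes of the mouse: Egr1, Egr2, Egr3 and Egr4, Fos and Fosb, Jun and Junb, Ier2 and Atf3. They were taken by name, and H3K27me3 was read from a list of sites at each gene, that is, in the annotated gene and in 20 kb on both sides. The 10 genes stand among 21755 protein-coding genes on the autosomes and chromosome X, and 31 of the 101389 listed sites overlapped their windows.

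The list is that of the second H3K27me3 experiment of the study, and that of the first was not used. It comes from ChIP-seq of H3K27me3 (histone H3 trimethylated at lysine 27) in iMEF cells, which are immortalized mouse embryo fibroblasts. In all of these cells exon 4 of the endogenous Ash2l alleles was deleted, and they carried a lentiviral construct for human ASH2L fused to an FKBP domain, a tag through which the small molecule dTAG directs the protein to degradation. ASH2L is a subunit of the COMPASS/KMT2 complexes, which methylate lysine 4 of histone H3. The 8 H3K27me3 libraries comprised 2 of untreated cells and 2 for each dTAG time of 16 h, 24 h and 48 h, and the 4 inputs comprised 2 untreated and 2 at 48 h of dTAG. According to the study, the cells were of clone NG3, so both replicates of a group come from a single clone with a human fusion protein. The sites were pooled over all samples of the second experiment, and each has only a position. From this list no value per library, depth or replicate error can be given for a site, and no time point can be compared with another. A separate list of the study, of sites that changed at each time point, was not used here. All values below are therefore descriptions of 1 pooled list, with no p-value. A gene without a listed site may still carry H3K27me3 below the authors' cutoff, which is not stated.

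Immediate early genes are transcribed within minutes of a stimulus such as a growth factor, without the need for new protein synthesis. Most of them encode transcription factors: the EGR proteins are zinc fingers that bind GC-rich DNA, FOS and JUN proteins pair through leucine zippers to form AP-1, and ATF3 is a related leucine zipper protein induced by stress. Their promoters typically hold CpG-rich DNA and binding sites for serum response factor and CREB. H3K27me3 is placed by Polycomb repressive complex PRC2, often at CpG-rich promoters of genes that are not transcribed.

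Sequence stretches are shown to set the positions below beside their sequence, all 5′ to 3′ on the strand of the gene. The first set is the 250 bases before the start of Egr4, of Fos and of Jun from the RefSeq promoter table on GRCm38, since these genes were respectively covered by a wide site, overlapped by a short site after the 5′ end and far from any site. They lie at chr6:85513590-85513839 (minus strand), chr12:85473640-85473889 (plus strand) and chr4:95052223-95052472 (minus strand). Capitals mark CGTCA, the core of the cAMP response element (CRE), on either strand and the TATA motif TATAAA.
Egr4: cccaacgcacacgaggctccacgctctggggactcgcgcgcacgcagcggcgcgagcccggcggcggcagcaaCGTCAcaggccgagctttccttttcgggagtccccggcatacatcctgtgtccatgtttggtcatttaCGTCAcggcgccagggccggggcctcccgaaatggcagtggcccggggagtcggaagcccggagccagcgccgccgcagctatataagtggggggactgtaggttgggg
Fos: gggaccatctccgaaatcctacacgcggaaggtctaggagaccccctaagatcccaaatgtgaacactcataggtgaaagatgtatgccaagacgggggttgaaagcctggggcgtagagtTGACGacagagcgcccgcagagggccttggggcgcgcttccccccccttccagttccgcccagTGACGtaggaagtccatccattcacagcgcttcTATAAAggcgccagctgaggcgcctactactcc
Jun: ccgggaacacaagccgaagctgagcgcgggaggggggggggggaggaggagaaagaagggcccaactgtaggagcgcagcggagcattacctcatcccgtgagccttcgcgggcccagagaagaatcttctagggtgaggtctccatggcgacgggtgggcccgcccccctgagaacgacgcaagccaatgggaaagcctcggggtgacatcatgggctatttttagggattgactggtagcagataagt

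These stretches held 28 CpGs for Egr4 and 15 each for Fos and Jun, at a GC content of 68% for Egr4, 58.4% for Fos and 61.2% for Jun. The second set is the middle 300 bases of the sites nearest to the starts of Fos and Atf3, read from GRCm38.p6 at chr12:85475112-85475411 (plus strand) and chr1:191185703-191186002 (minus strand), with CpGs in capitals.
Fos site: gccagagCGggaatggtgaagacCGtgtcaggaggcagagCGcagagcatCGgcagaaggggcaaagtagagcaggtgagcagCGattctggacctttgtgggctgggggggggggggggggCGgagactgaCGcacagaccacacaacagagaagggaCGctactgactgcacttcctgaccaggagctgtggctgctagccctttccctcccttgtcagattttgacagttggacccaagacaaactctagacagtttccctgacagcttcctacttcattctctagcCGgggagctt
Atf3 site: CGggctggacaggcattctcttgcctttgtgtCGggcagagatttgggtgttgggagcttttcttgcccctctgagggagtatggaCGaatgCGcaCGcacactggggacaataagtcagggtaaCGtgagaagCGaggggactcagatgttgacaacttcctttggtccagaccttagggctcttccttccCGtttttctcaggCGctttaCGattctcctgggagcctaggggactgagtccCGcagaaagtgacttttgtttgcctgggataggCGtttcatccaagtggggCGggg

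The Fos stretch held 9 CpGs and the Atf3 stretch held 13. RefSeq promoter sequences were found for 7 of the 10 genes with 11 starts in all, and each was searched on both strands from 250 bases before to 50 after the start. The CRE core CGTCA was found at 8 of the 11 starts, beside 20.8% of all 32817 promoters in the table. Several of these starts belong to Egr2 and overlap, and the 8 starts are those of 6 genes (Egr2, Egr4, Fos, Fosb, Junb and Atf3). Egr2, Egr4 and Fos each had promoters that held it 2 times, and Jun held none. The whole CRE TGACGTCA, which contains this core on both strands, was found in none of the 7, the AP-1 motif TGANTCA in none and the EGR motif GCGTGGGCG in none, with shares of 1.79%, 7.81% and 0.612% of all promoters. The EGR motif GCGGGGGCG was found in Fosb (2.91% of all promoters), the CArG box, the target of serum response factor, in Egr2 (1.63%) and TATAAA in Fos and Junb (13.6%). A match is only a match of letters in this window.

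A listed site lay within 1 kb of a transcription start site (TSS) of 4 of the 10 genes, Egr3, Egr4, Fos and Atf3, beside 26.9% of all protein-coding genes. A site lay in the gene or in 20 kb on both sides of 6 of the 10, which were these 4 together with Egr1 and Fosb, beside 61.5% of all protein-coding genes. The 6 of 10 are near that background, and with 10 genes and no test, 4 of 10 is not called different from it. Egr2, Jun, Junb and Ier2 had no site in their windows. The median distance from a TSS to the nearest site was 18952 bp over the 10 genes and 13192 bp over all protein-coding genes. All 10 genes had a CpG-rich promoter, beside 59.2% of all protein-coding genes. A CpG-rich promoter was here 500 bp within 1 kb of a TSS in which GC reached 55% and the observed/expected ratio of CpGs reached 0.65. Of all 12884 genes with such a promoter, 26.2% had a listed site at that distance from a TSS and 66.8% had one in the window, and their median distance was 11107.5 bp.

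**Figure D1:**
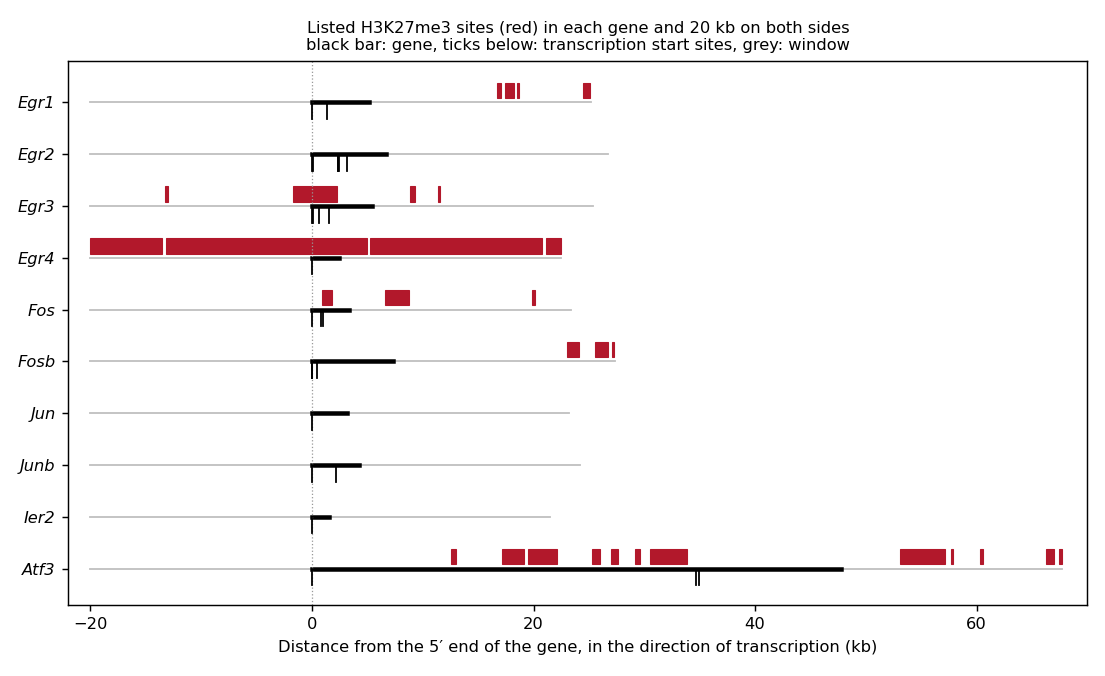
Listed H3K27me3 sites (red) along each of the 10 genes, with the gene as a black bar, its TSSs as ticks below and the window as a grey line, by distance from the 5′ end of the gene in kb. Sites fill the window of Egr4, lie over the start of Egr3, inside Fos and in the introns of Atf3, lie only downstream at Egr1 and Fosb, and are absent at Egr2, Jun, Junb and Ier2.

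Among the 4 EGR genes, Egr3 and Egr4 had a site over the start, Egr1 had sites only downstream and Egr2 had none in its window. Egr4 had the largest covered share of its window of the 10 genes. The gene, at chr6:85511121-85513589 on the minus strand, lay entirely inside a site of 18219 bp, and 98.0% of its window was covered by 5 sites. Only 0.17% of protein-coding genes had as large a share of their window covered. From downstream to upstream of the gene the sites were 15068, 15544, 18219, 518 and 25022 bp wide, and the gaps between them were 302, 227, 300 and 2 bp. The 4 wide sites were the only ones of 10 kb or more among the 31, and the widest of them was exceeded or equalled in width by 369 of the sites on chromosomes, itself included. When sites less than 1 kb apart were joined, the stretch ran over 79397 bp at chr6:85473239-85552635, held 6 sites, was 98.6% covered, and included the TSSs of Egr4 and of its downstream neighbour Fbxo41, which encodes an F-box protein. Within 500 bp of the TSS of Egr4 the GC content was 65.9% and the CpG observed/expected ratio 0.836, and over the whole site that held it they were 49.8% and 0.354.

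Egr3 carried a compact site over its start. The gene encodes a factor known from muscle spindles and T cells, and lies at chr14:70077203-70082614 on the plus strand. Its site was 4043 bp wide, ran from position -1752 to position 2290 relative to the 5′ end of the gene, and held all 4 annotated TSSs. It covered 42.3% of the gene and, at a GC content of 61.5% and a CpG observed/expected ratio of 0.723, was the CpG-richest of the 31 sites by that ratio. The other 3 sites in the window were 262 bp wide upstream, and 422 and 200 bp wide downstream, so 10.8% of the window was covered in all. Within 1 kb of the 5′ end the coverage was 100% at both Egr3 and Egr4, but within 20 kb it was 12.3% at Egr3 and 98.7% at Egr4.

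Egr1, a gene induced by growth factors, had no listed site in the gene or in the 20 kb upstream of it. For Egr1 this does not show a lack of the mark, which may lie below the authors' cutoff. The nearest site began 15328 bp downstream of the downstream TSS of Egr1 and 16712 bp from the 5′ end. A site was as near or nearer at 52.4% of protein-coding genes. Egr1 had 4 short sites in its window, of 341, 835, 200 and 587 bp, all intergenic and between 16.7 and 25.1 kb downstream of the 5′ end, and together they covered 4.35% of the window. Upstream, the next site lay 137049 bp away over Gfra3, which encodes a receptor for a glial cell line-derived neurotrophic factor family ligand. The site-free stretch around the 5′ end of Egr1 was 153760 bp long.

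Egr2, known for hindbrain patterning and myelination, had no site in its window, and its nearest site lay 145029 bp downstream of a TSS. A site was as near or nearer at 87.2% of protein-coding genes. The whole window of Egr2 (46714 bp) is also present, with 100% identity, on a fix patch sequence of GRCm38.p6, and the windows of the other 9 genes had no such copy. The copied stretch, 425357 bp at chr10:67228314-67653670, held no site. The same lengths before and after it held 6 and 12 sites, at 1.15% and 1.39% of their bases. The site-free stretch around the 5′ end of Egr2 was longer, 727728 bp, and ran beyond the copied stretch on both sides. It lay between a site that ended at position 66955983 and a site that began at 67683712. If the patch was part of the reference used for alignment, reads from either copy would match both. Whether such reads were discarded was not tested, so the lack of a listed site at Egr2 cannot be read as a lack of the mark.

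**Figure D2:**
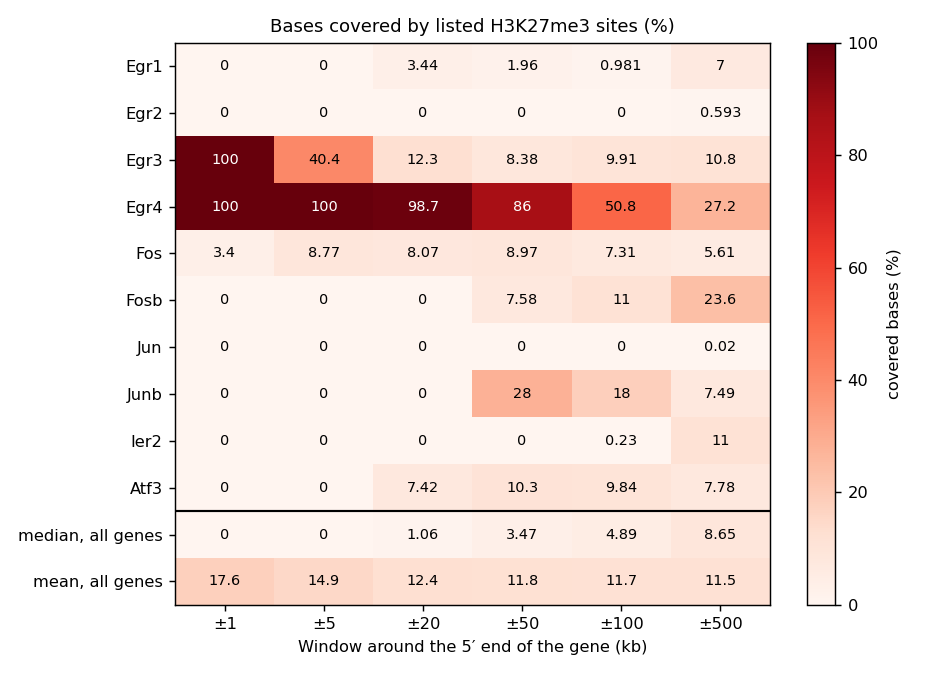
Share of bases covered by listed H3K27me3 sites (%) within 1 to 500 kb on both sides of the 5′ end of each gene, with the median and the mean of all 21755 protein-coding genes below the line. Egr3 and Egr4 were fully covered within 1 kb, and at 500 kb the 10 genes ran from 0.02% at Jun to 27.2% at Egr4.

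Among the AP-1 genes, Fos was the only one of Fos, Fosb, Jun and Junb with a site in the gene. Fos, at chr12:85473890-85477273 on the plus strand, had a site of 877 bp from 933 to 1809 bp after its 5′ end. This site overlapped a coding exon by at least 1 bp, and how much of it is coding was not measured. The first TSS of Fos, the only one here of a coding transcript, lay outside the site, a non-coding TSS at position 85474691 lay 132 bp before it, and a non-coding TSS at 85474911 lay in it. The site had a GC content of 55.5% and a CpG observed/expected ratio of 0.429, below the 61.9% and 0.725 around the 5′ end, and it alone covered 25.9% of the gene. The middle of this site is the Fos stretch printed above. A site of 2187 bp began 6553 bp after the 5′ end, in intergenic sequence, and one of 275 bp began 19838 bp after it. The 3 sites covered 7.70% of the window.

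Fosb, a paralogue of Fos, had no site nearer than 22576 bp to a TSS, and 58.4% of protein-coding genes had one as near. All 3 sites in its window lay in Rtn2, a downstream neighbour that encodes a reticulon protein, and were 230, 1207 and 1051 bp wide. The 230 bp site lay 123 bp from a TSS of Rtn2 and was the most GC-rich of the 31 sites, at 72.2%. These sites covered 5.25% of the window and none of Fosb. Coverage around Fosb was higher in wider windows. It was 0% within 20 kb of its 5′ end, 7.58% within 50 kb, 11.0% within 100 kb and 23.6% within 500 kb.

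Jun, a main dimer partner of FOS in AP-1, lay in the longest site-free stretch of the 10 genes. Its nearest site was 119995 bp downstream, of 200 bp, the smallest width in the list, in intergenic sequence near Eqtn. The next site upstream lay 620861 bp away in an intron of Fggy. This stretch was 740855 bp long, followed by that of Egr2 with 727728 bp, and 13.0% of protein-coding genes had one as long as that of Jun. Only 0.02% of the bases within 500 kb of Jun were covered. Coverage around Jun was lower than around Egr2 (0.593%), and no copy on another sequence was found for the window of Jun.

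Junb had no site in its window, but a wide site lay just beyond its downstream end. This site, of 25465 bp at chr8:84927642-84953106 over Mast1 and Rtbdn, ended 23436 bp from a TSS of Junb, and upstream a site of 3608 bp over Best2 lay 32611 bp from the 5′ end. Within 20 kb of the 5′ end 0% was covered, and within 50 kb 28.0% was, the second highest value of the 10 genes after Egr4. The site-free stretch that held Junb was 58222 bp long. Other genes in this stretch included Prdx2, which encodes a peroxiredoxin, and Rnaseh2a, which encodes a subunit of ribonuclease H2. These were singled out from several neighbours of Junb. A site was as near as at Junb in 59.1% of protein-coding genes.

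Ier2, which encodes a small nuclear protein and lies on the same chromosome as Junb, had no site within 71393 bp of its TSS. That site, 239 bp wide, lay downstream in an intron of the calcium channel gene Cacna1a, and the next site upstream, 1136 bp wide, lay 150791 bp away near Dand5. A site was as near at 78.0% of protein-coding genes. Coverage was 0% within 50 kb of Ier2, 0.23% within 100 kb and 11.0% within 500 kb.

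**Figure D3:**
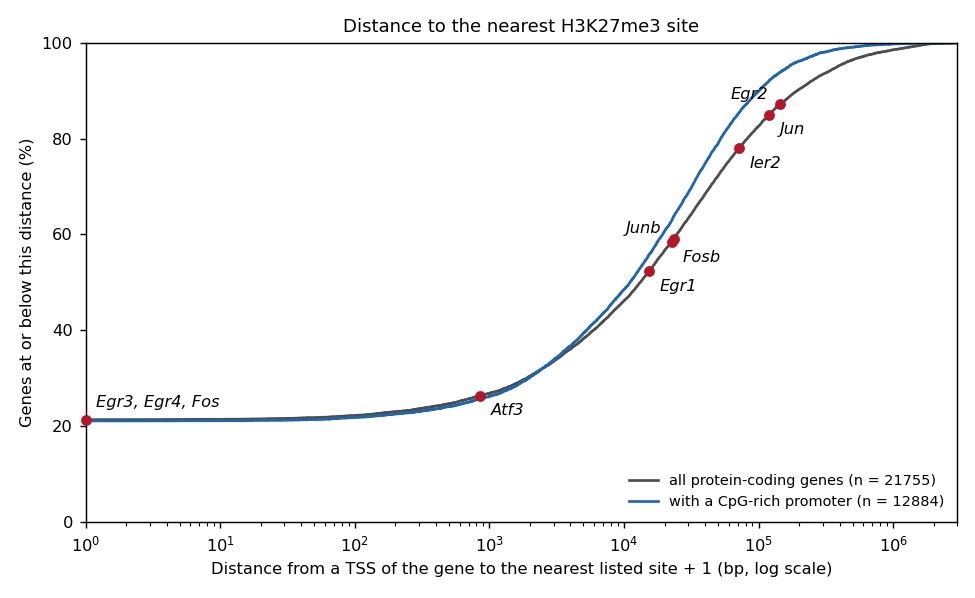
Cumulative share of genes (%) by distance from a TSS to the nearest listed site (bp plus 1, log scale) for all 21755 protein-coding genes (grey) and the 12884 with a CpG-rich promoter (blue), with the 10 genes as red points on the grey curve. Egr3, Egr4 and Fos had a TSS in a site, at Fos only that of a non-coding transcript. Atf3 had a TSS 857 bp from a site, and the other 6 genes lay between 15328 bp (Egr1) and 145029 bp (Egr2) from a site.

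Atf3 had the most sites, 12 in its window, and they lay away from its 5′ end. The gene is 47744 bp long at chr1:191170296-191218039 on the minus strand, the longest of the 10. Its 5′ end lay 12556 bp from the nearest site, and had a CpG observed/expected ratio of 0.248 within 500 bp on both sides. A second coding TSS lay 34699 bp inside the gene at position 191183340. The RefSeq start of Atf3 used for the motif search, at position 191183333, lay beside this second TSS and not at the 5′ end. The site nearest to the second TSS was 857 bp upstream. This site, 3311 bp wide at chr1:191184197-191187507 in an intron, had a GC content of 53.6% and a CpG observed/expected ratio of 0.475, and its middle is the Atf3 stretch printed above. Of the 12 sites, 7 lay over the gene, from 471 to 3311 bp wide, and covered 21.6% of it. These 7 lay between the second coding TSS and the 5′ end, so they were upstream of the second TSS. The other 5 lay downstream, from 200 to 4120 bp wide, and the widest covered the TSS of Fam71a. Upstream of the 5′ end no site was listed for 184456 bp, up to Ppp2r5a, which encodes a subunit of protein phosphatase 2A.

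The 31 sites differed in position, width and composition. Relative to the gene, 10 sites overlapped it, 18 were downstream and 3 were upstream. By annotation, 14 were intergenic, 7 lay in introns, and the rest touched exons. Widths ran from 200 to 25022 bp with a median of 735 bp, beside 677 bp for all 101305 sites on chromosomes, and 11 of the 31 were under 500 bp. The median GC content was 51.0%, beside 47.7% for all sites, and the median CpG observed/expected ratio was 0.216, beside 0.182. Only the Egr3 site and the 230 bp site in Rtn2 had a ratio over 0.65, the limit used above for promoters. In all 70382 of the 487187 bases in the 10 windows were covered, or 14.4%, beside 9.38% for all protein-coding genes and 12.8% for the 7693 of up to 10 kb, since all but 1 of these genes are shorter than that. Egr4 held 59.2% of the covered bases and Atf3 22.8%, and without Egr4 the covered share was 6.46%.

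**Figure D4:**
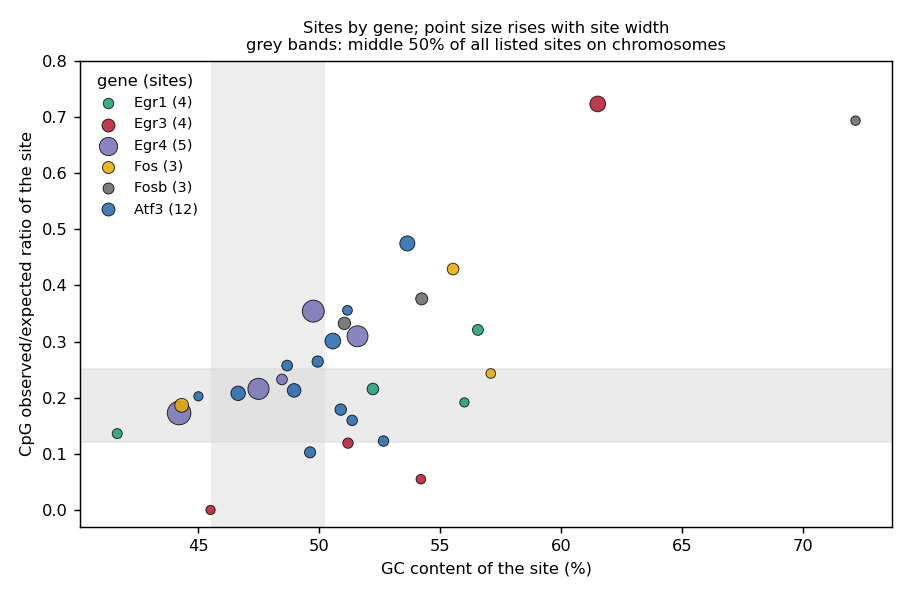
GC content (%) and CpG observed/expected ratio of the 31 sites, coloured by gene, with the point size rising with site width and grey bands for the middle 50% of all listed sites on chromosomes. The site over the start of Egr3 (61.5%, 0.723) and the 230 bp site in Rtn2 near Fosb (72.2%, 0.694) stand apart from the others, and the wide Egr4 sites lie in or near the bands.

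Related genes were read the same way, by sites within 1 kb of a start. Of 37 other immediate early genes, 5 (13.5%) had a site this near to a TSS and 16 (43.2%) had one in the window, beside 26.9% and 61.5% of all protein-coding genes. The 5 were Dusp2, a phosphatase of MAP kinases with 61.8% of its window covered, the nuclear receptor genes Nr4a3 (10.5%) and Nr4a1 (2.90%), the small GTPase gene Gem (2.87%) and the kinase gene Sik1 (1.15%). The other AP-1 subunit genes Fosl1, Fosl2 and Jund, singled out after their values were seen, had no site in the window and were 47172, 25660 and 31880 bp from one. Of 16 partners and regulators of these factors, 3 (18.8%) had a site this near, and these were the 3 Batf genes, whose leucine zipper proteins pair with JUN proteins. Their windows were covered to 43.5% at Batf2, 38.5% at Batf and 12.3% at Batf3. Batf3 is on the same chromosome as Atf3, with its 3′ end at position 191108945, and Batf is on that of Fos, with its 5′ end at position 85686669.

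The reference lists mark the ends of the scale. Of 10 developmental regulators that PRC2 commonly targets, 9 had a site within 1 kb of a start, all 10 had one in the window, and the median covered share of the window was 61.3%. The 9 were, from the most to the fewest covered bases, Pax2, Gata4, Lhx2, Pax6, Olig2, Tbx5, Nkx2-2, Sim1 and Neurog2, and the exception was Pax9, singled out after its value was seen. Of 10 constitutively expressed genes, only Eef1a1 had a site within 1 kb of a start, 3 had one in the window, and the median covered share was 0%. Egr4 was above the developmental median. The median of the 10 immediate early genes was 4.80%, beside 1.88% for all protein-coding genes. Since these genes are short (median 4698.5 bp, beside 17414 bp), the 7693 genes of up to 10 kb were also read. Of these 23.0% had a site within 1 kb of a start and 54.3% had one in the window, with a median distance of 16898 bp.

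**Figure D5:**
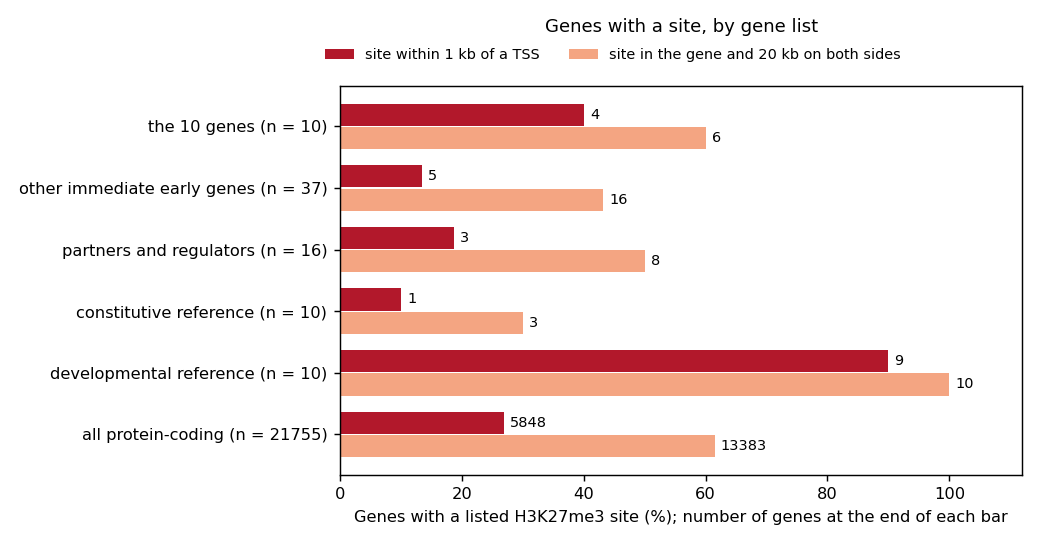
Share of genes (%) with a listed H3K27me3 site within 1 kb of a TSS (dark bars) and in the gene and 20 kb on both sides (light bars), by gene list, with the number of genes at the end of each bar. The counts were 4 and 6 of the 10 immediate early genes, beside 26.9% and 61.5% of all protein-coding genes. They were 1 and 3 in the constitutive list and 9 and 10 in the developmental list.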

How the data were processed

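H3K27me3 ChIP-seq was analysed from a deposited list of the sites that the authors identified over all samples of the second experiment. Its values are positions (chromosome, start and end) in bp, with no score, count or signal. According to the methods and the submitters' processing notes, the authors used Trim Galore for trimming, BWA for alignment to mm10 (GRCm38.p6), SAMtools for filtering, Picard for merging replicates and MACS2 for calling broad peaks. deepTools and DESeq2 are also listed. Versions, peak cutoffs and how the peaks of single samples became 1 list are not given in the sources used here. Which step set the minimum width, and whether any step joined nearby peaks, is not known, and counts of sites can depend on both. The planned tests between time points needed values per library and were not run, and the cell type could not be checked on expression.

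The 10 genes, the other lists and the limits were chosen with earlier results of these data known. Groups came from the sample titles and records. Starts were read as counted from 0 and printed positions count from 1. Genes and TSSs were those of GENCODE release M21 on GRCm38 (Python 3.11.15, pandas 2.3.3, pysam 0.24.0), with an overlap of at least 1 bp. Distances run from a TSS of any annotated transcript to the nearest base of a site, and are 0 in a site. Copies of windows on other sequences of the assembly were sought with minimap2 2.31-r1302, from 5000 bp and 95% identity. Interval code was tested on simulated data. The text names all 10 genes, the gene nearest to each site, and genes of other lists with a site at most 1 kb from a TSS, and says where others were singled out. Alternatives were the smallest site width, the joining of sites, the window, the TSS set, the centre of the site in place of its edge, and leaving out Egr2 or Egr4, the last 2 and the use of the 5′ end alone for the TSS count chosen after seeing the data.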

Additional observations from a re-analysis of the deposited data

Results flagged for a closer look

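Outside the regions used for these genes, 84 listed sites lay on 19 scaffolds, where no gene window was set. At the positions that the copy of the Egr2 window takes on its patch (287191 to 333904), 0 sites were listed on any scaffold. They are given because they are listed data that no comparison above used, and the list holds no control library to set them against.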

How the results depend on the processing

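No paired analysis was possible because the list pools all libraries and holds no value for a replicate, so no library could be left out. Of 40 alternative values 32 stayed within the limits used here (counts within 1.5 times), among them all 7 for the median distance, which ran from 15328 bp without Egr2 to 23006 bp with a minimum width of 1000 bp, and all 8 for the count of genes with a site in the window, from 4 with 10 kb on both sides (51.9% of all protein-coding genes) to 7 with 50 kb (74.9%). With the centre of the site in place of its edge, 2 genes (Egr3 and Fos) were within 1 kb in place of 4 (18.5% of all protein-coding genes in place of 26.9%), since the centre of the wide Egr4 site and that of the Atf3 site lay farther away. At Fos the centre was within 1 kb only of TSSs of non-coding transcripts. Without Egr4 the covered share was 6.46%. The number of sites in the windows was 20 and 12 with a minimum width of 500 and 1000 bp, 20 and 15 after joining across gaps under 1000 and 3000 bp, 16 with 10 kb on both sides and 51 with 50 kb, against 31. Fos lost its place among the 4 genes when sites under 1000 bp were left out, and Atf3 with a limit of 500 bp from a TSS or with the 5′ end of the gene alone. Depth limits which sites were listed. The study states a planned minimum, and the depth reached by each library is unknown here.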
